A study of Homo sapiens with 12 samples.

Results

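The 10 genes PHGDH, PSAT1, PSPH, SHMT1, SHMT2, MTHFD1, MTHFD1L, MTHFD2, ALDH18A1 and PYCR1 encode enzymes that make serine, pass its carbon through the folate cycle, and make proline. They were chosen by symbol, and all 10 were found among the 20036 genes of the table. The choice was made with values of all 12 libraries and all 4 groups known, so levels, differences and counts of calls for these 10 genes are given as descriptions, with no p-value and no test. RNA was sequenced from MV-4-11, an established human acute myeloid leukaemia line driven by a mutated FLT3 receptor and a KMT2A fusion. The labels give the line as wild type and from bone marrow. There were 3 libraries in each of 4 groups: DMSO as solvent control, HPA-12, crenolanib, and a combination in which the cells received the 2 compounds together. HPA-12 blocks CERT, which carries ceramide from the endoplasmic reticulum to the Golgi, and crenolanib blocks the FLT3 kinase. The treated groups were taken at 48 h. No time is stated for DMSO and no dose for any group, and it is not stated that the libraries are independent cultures, so any p-value measures only the spread between these libraries.

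Serine is built from a glycolytic intermediate in 3 steps, by PHGDH, PSAT1 and PSPH. Serine hydroxymethyltransferases then split it into glycine and a one-carbon unit held by folate, which serves purine and thymidine synthesis and methylation. Most of this cycle exists as parallel cytosolic and mitochondrial enzymes. Proline is made from glutamate by ALDH18A1 and the PYCR reductases. Serine, mitochondrial folate and proline genes are known targets of the stress-response factor ATF4, and many are also targets of MYC. Leukaemia cells, like other dividing cells, draw on both routes for nucleotides and protein.

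Levels are in FPKM, fragments scaled by the authors for gene length and library size. The files hold no read counts. Depth was estimated from the steps between low FPKM values (in units of 1e6 reads) at 13.6 to 15.98 in DMSO, 12.1 to 12.8 under HPA-12, 10.1 to 10.2 under crenolanib and 4.40 to 5.07 in the combination. Mitochondrially encoded genes took on average 19.8% of the FPKM sum in DMSO, 21.6% under HPA-12, 36.0% under crenolanib and 62.2% in the combination. Markers fixed for the label were present: the summed level of 10 myeloid and monocytic genes was 1435 to 1502 FPKM in DMSO, 507 to 535 under HPA-12, 1307 to 1343 under crenolanib and 1122 to 1163 in the combination. Of these, only CD14 averaged under 1 FPKM in DMSO. The sum of 8 erythroid genes was 72.9 to 79.4 FPKM in DMSO, 206 to 212 under HPA-12, 4172 to 4445 under crenolanib and 25984 to 26271 in the combination. HBG2 was listed at 0 in every DMSO and HPA-12 library. The sum of 6 lymphoid genes was 63.9 to 65.7 FPKM in DMSO and 23.5 to 27.3 in the combination, most of it NKG7, and that of 6 stromal and epithelial genes was 8.61 to 61.8 FPKM over all libraries, most of it PECAM1 outside the combination. The part of cell makeup, depth and mitochondrial share in the results below was not tested. In bulk RNA, fewer cells of a type and less RNA per cell cannot be told apart.

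Across the 10 genes, 9 had a lower mean than DMSO in the HPA-12 group, and all 10 did in each group that received crenolanib. Every HPA-12 library lay below every DMSO library for 8 of the 10 (35.3% of all genes), and the same held for all 10 in the crenolanib group (40.4% of all genes) and in the combination (56.4% of all genes). Differences are given as log2 differences of FPKM plus 1 with the standard error of a limma fit over all 12 libraries, a scale that understates changes of genes with low FPKM. All 10 genes were among the 11149 that reached 1 FPKM in at least 3 libraries. The median difference of the 10 was -1.42 under HPA-12, -1.01 under crenolanib and -1.05 in the combination. The medians over all genes tested were 0.09, -0.04 and -0.62. By the rule used for all genes (limma, adjusted p under 0.05), and as a count only, 8 of the 10 were called lower under HPA-12, where 23.0% of all genes were, 8 under crenolanib (29.0% of all genes) and 10 in the combination (56.6% of all genes). None was called higher in any of these comparisons in this fit, against 27.8%, 27.5% and 14.8% of all genes. Differences in the combination are therefore read against a median gene at -0.62. The 3 comparisons share the same DMSO libraries, and the 10 genes were chosen with these contrasts known, so nothing is read from the counts.

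**Figure D1:**
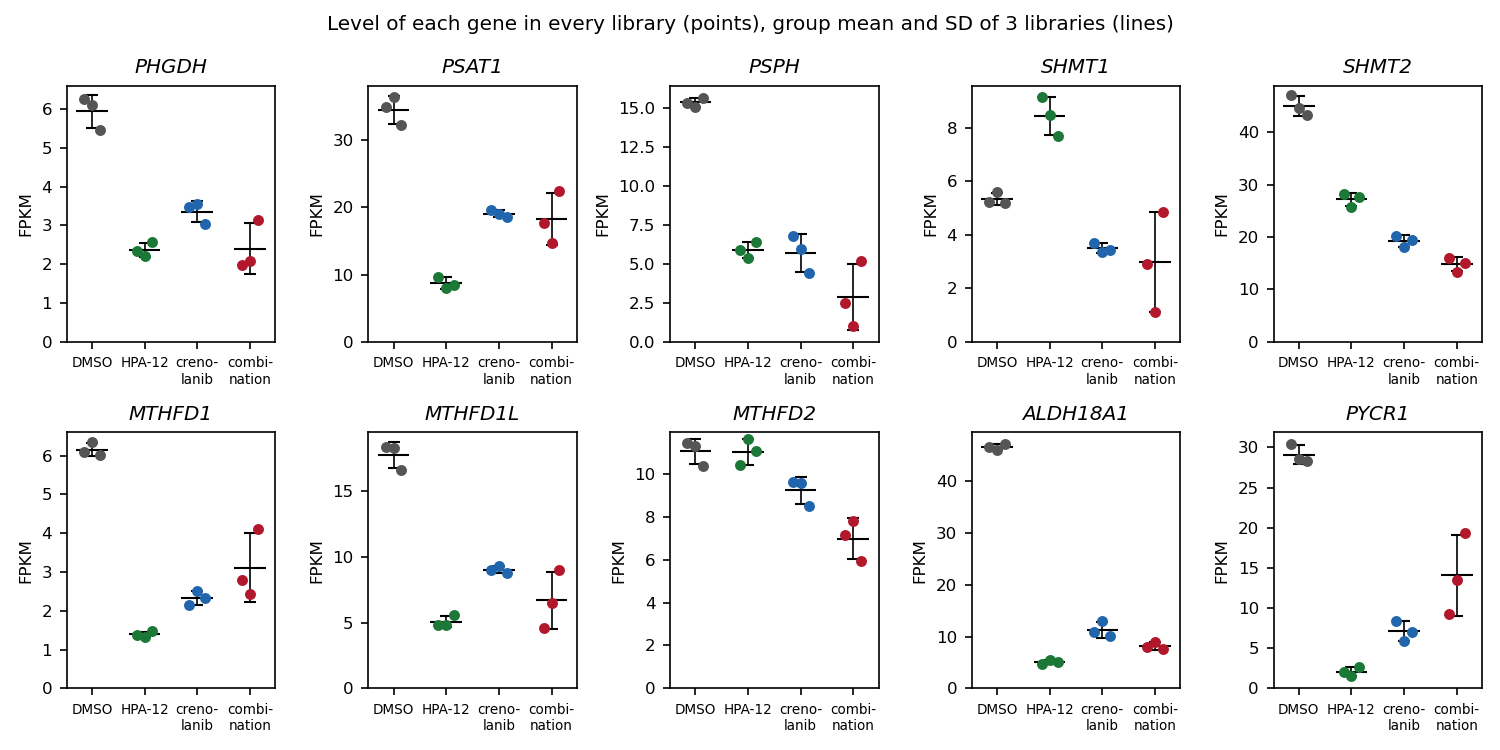
Level in FPKM of each of the 10 genes (vertical axis from 0) in every library of DMSO, HPA-12, crenolanib and the combination, with each group's mean and SD of 3 libraries as lines. SHMT1 is the gene whose HPA-12 libraries lie above DMSO, and PYCR1 spreads from 9.29 to 19.4 FPKM in the combination.

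PHGDH (ENSG00000092621) encodes the dehydrogenase of the first and committed step of serine synthesis. PHGDH had 6.25, 6.10 and 5.45 FPKM in DMSO, 2.34, 2.21 and 2.56 under HPA-12, 3.47, 3.54 and 3.04 under crenolanib, and 1.98, 2.08 and 3.15 in the combination. Every treated library lay below every DMSO library, and HPA-12 lay below crenolanib, while the combination overlapped both. The differences from DMSO were -1.04 ± 0.14 under HPA-12, -0.67 ± 0.14 under crenolanib and -1.04 ± 0.14 in the combination.

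PSAT1 (ENSG00000135069), the aminotransferase of the middle step, was the most abundant of the 3 serine genes in every group. It had 34.9, 36.4 and 32.3 FPKM in DMSO, 9.70, 8.01 and 8.51 under HPA-12, 19.6, 19.0 and 18.5 under crenolanib, and 17.6, 14.8 and 22.4 in the combination. HPA-12 alone gave the lowest libraries, and the combination overlapped crenolanib alone and lay wholly above HPA-12 alone. The difference from DMSO was -1.87 ± 0.13 under HPA-12, against -0.82 ± 0.13 under crenolanib and -0.90 ± 0.13 in the combination.

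PSPH (ENSG00000146733), the phosphatase that releases free serine, had 15.3, 15.1 and 15.7 FPKM in DMSO, 5.88, 5.41 and 6.40 under HPA-12, and 6.80, 5.96 and 4.39 under crenolanib. The single agents overlapped. In the combination it had 2.47, 1.00 and 5.19 FPKM, all below HPA-12 and overlapping crenolanib, but the estimated reads behind these values were 14.0 to 66.0 per library. The differences from DMSO were -1.25 ± 0.31, -1.30 ± 0.31 and -2.22 ± 0.31 for HPA-12, crenolanib and the combination. PSPH has related pseudogene copies, so its level may depend on how the authors assigned shared reads.

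The 3 serine genes thus did not share one order of groups. Ratios of 2 genes within a library do not depend on how libraries are scaled. PSPH stood to PSAT1 as 0.446 ± 0.0359 (SD, n = 3, as for all ratios and means below) in DMSO, 0.678 ± 0.0728 under HPA-12, 0.299 ± 0.0563 under crenolanib and 0.147 ± 0.0824 in the combination. No pair of groups overlapped in this ratio, although the lowest crenolanib library (0.237) and the highest combination library (0.232) came close. PHGDH stood to PSAT1 as 0.172 ± 0.0062 in DMSO, 0.273 ± 0.0302 under HPA-12, 0.176 ± 0.0111 under crenolanib and 0.131 ± 0.0165 in the combination, so relative to PSAT1 the other 2 serine genes were highest in HPA-12 libraries.

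**Figure D2:**
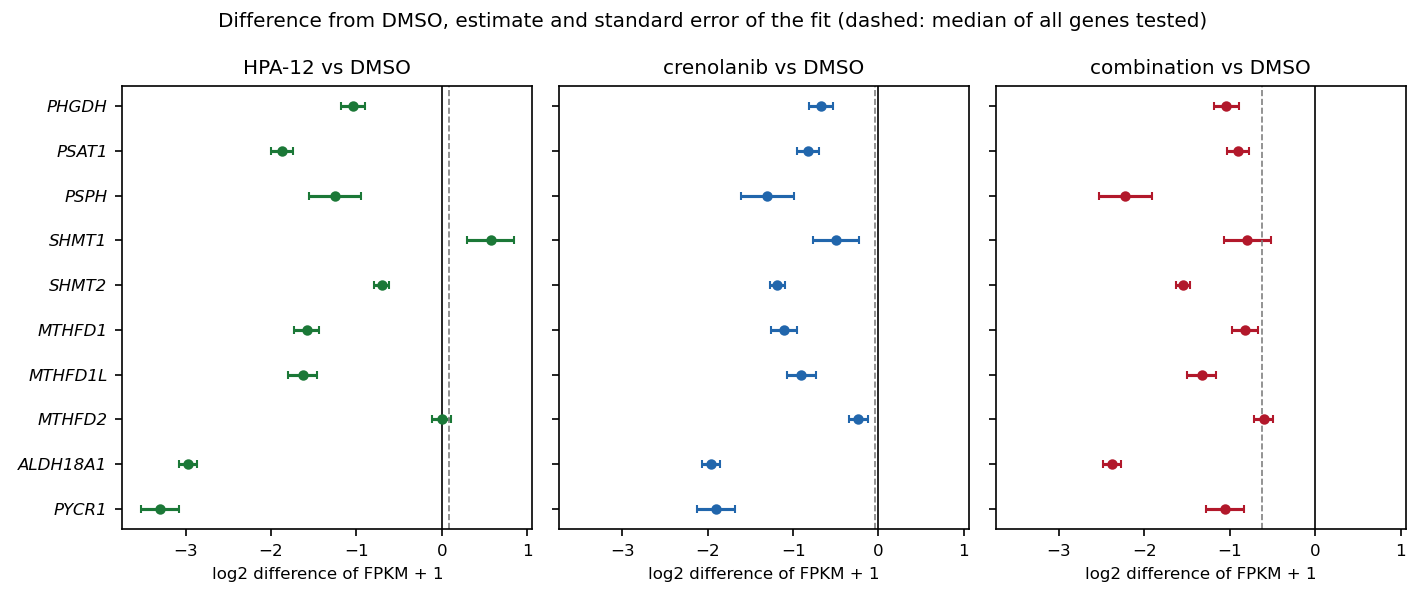
Log2 difference of FPKM plus 1 from DMSO (horizontal axis) for each of the 10 genes, with the standard error of the fit, in 3 panels for HPA-12, crenolanib and the combination. The dashed line is the median of all genes tested (0.09, -0.04 and -0.62), and the proline genes ALDH18A1 and PYCR1 lie farthest left under HPA-12.

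The serine hydroxymethyltransferases differed between compartments. SHMT2 (ENSG00000182199), the mitochondrial enzyme and the main source of one-carbon units in dividing cells, had 47.2, 44.6 and 43.3 FPKM in DMSO. It had 28.1, 25.8 and 27.7 under HPA-12, 20.2, 18.1 and 19.5 under crenolanib, and 15.99, 13.4 and 15.1 in the combination. As deposited, no pair of groups overlapped, in the order DMSO, HPA-12, crenolanib, combination. SHMT2 differed from DMSO by -0.71 ± 0.08, -1.18 ± 0.08 and -1.54 ± 0.08. The last step of this order depended on scaling. The combination lay above crenolanib with median-ratio scaling (-0.88 against -1.17) and with upper-quartile scaling (-0.77 against -1.02).

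SHMT1 (ENSG00000176974), the cytosolic enzyme, had 5.23, 5.59 and 5.21 FPKM in DMSO and 9.14, 8.48 and 7.69 under HPA-12. This made it the one gene of the 10 with all HPA-12 libraries above DMSO, as 44.2% of all genes had. Under crenolanib it had 3.71, 3.35 and 3.45 FPKM, and in the combination 2.92, 1.12 and 4.86, both below DMSO and overlapping each other. Its difference from DMSO was 0.57 ± 0.27 under HPA-12, -0.49 ± 0.27 under crenolanib and -0.80 ± 0.27 in the combination. The fit shares 1 estimate of spread over all groups. The SD of SHMT1 was 3.96% of its mean in DMSO, 8.58% under HPA-12, 5.35% under crenolanib and 63.0% in the combination. The combination value was -0.40 without the second combination library, which had an estimated 41.5 reads.

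Within a library, SHMT1 stood to SHMT2 as 0.119 ± 0.00723 in DMSO and 0.310 ± 0.0284 under HPA-12. The ratio was 0.182 ± 0.00444 under crenolanib and 0.196 ± 0.120 in the combination. HPA-12 and crenolanib both lay above DMSO without overlap, while the combination ran from 0.0839 to 0.323 and overlapped all 3 other groups.

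The downstream folate enzymes also split. MTHFD1 (ENSG00000100714), a cytosolic enzyme with 3 activities that interconverts folate-bound one-carbon units, had 6.10, 6.35 and 6.03 FPKM in DMSO and 1.38, 1.33 and 1.47 under HPA-12. It had 2.14, 2.52 and 2.33 FPKM under crenolanib and 2.79, 2.42 and 4.11 in the combination. HPA-12 alone was lowest, without overlap with any other group. MTHFD1 differed from DMSO by -1.58 ± 0.15, -1.11 ± 0.15 and -0.82 ± 0.15.

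MTHFD1L (ENSG00000120254), which releases formate from mitochondria, had 18.4, 18.3 and 16.7 FPKM in DMSO, 4.84, 4.83 and 5.55 under HPA-12, 9.0, 9.31 and 8.77 under crenolanib, and 4.60, 6.49 and 8.98 in the combination. The combination libraries spanned from below the HPA-12 libraries into the range of crenolanib. MTHFD1L differed from DMSO by -1.63 ± 0.17, -0.91 ± 0.17 and -1.33 ± 0.17.

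MTHFD2 (ENSG00000065911), the mitochondrial dehydrogenase and cyclohydrolase that acts just before MTHFD1L, differed least. It had 11.5, 11.3 and 10.4 FPKM in DMSO and 10.4, 11.6 and 11.1 under HPA-12, which overlapped (-0.00 ± 0.11). Under crenolanib it had 9.63, 9.59 and 8.51 FPKM (-0.24 ± 0.11) and in the combination 7.15, 7.82 and 5.95 (-0.60 ± 0.11), each below DMSO without overlap. The combination difference was close to the median of all genes. Relative to MTHFD2 in the same library, MTHFD1L was at 1.61 ± 0.00785 in DMSO, 0.460 ± 0.0426 in the HPA-12 group and 0.978 ± 0.0482 in the crenolanib group, and it spanned 0.643 to 1.51 in the combination. The corresponding ratio of MTHFD1 to MTHFD2 was 0.558 ± 0.0243, 0.126 ± 0.0104 and 0.253 ± 0.0271, with 0.309 to 0.691 in the combination.

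**Figure D3:**
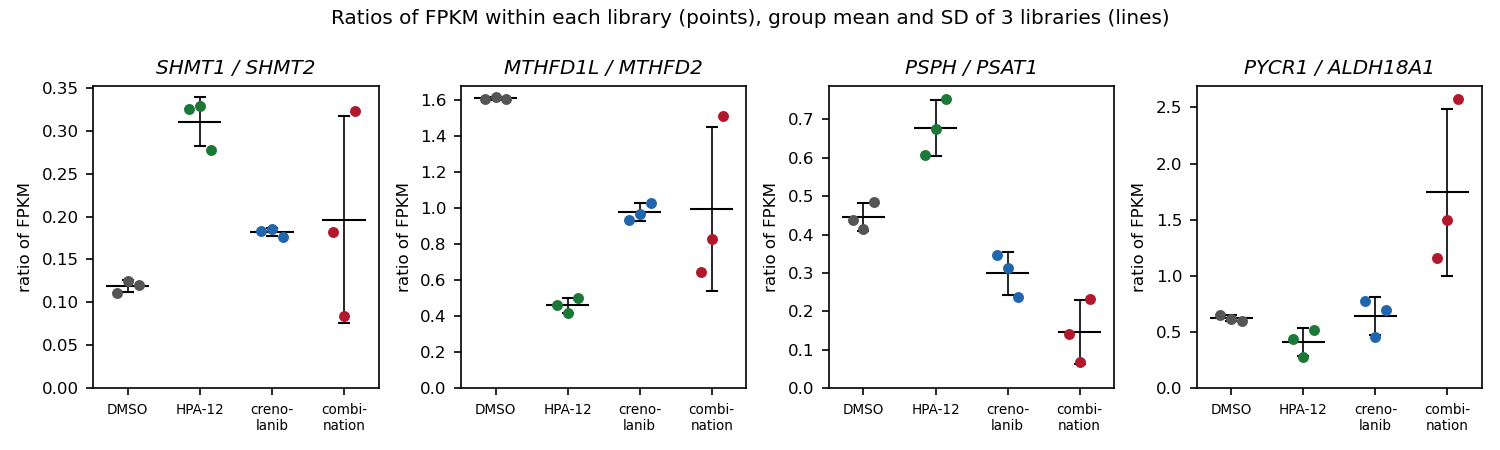
Ratio of FPKM (vertical axis from 0) within each library for 4 pairs of genes, with each group's mean and SD of 3 libraries as lines. The ratio of SHMT1 to SHMT2 is 0.119 in DMSO and 0.310 under HPA-12, while the ratio of PYCR1 to ALDH18A1 is 1.74 in the combination.

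The proline genes had the lowest values relative to DMSO of the 10 with either single agent. ALDH18A1 (ENSG00000059573), which activates glutamate in the first step towards proline and ornithine, had 46.6, 46.0 and 47.2 FPKM in DMSO. It had 4.71, 5.45 and 5.10 under HPA-12, 10.8, 13.0 and 10.1 under crenolanib, and 8.04, 9.02 and 7.52 in the combination. As deposited, the 4 groups did not overlap, and the combination lay between the single agents. The differences from DMSO were -2.97 ± 0.11, -1.96 ± 0.11 and -2.38 ± 0.11. From the lowest value up, these were number 18, 9 and 191 of the 11149 genes. This order depended on scaling. With median-ratio scaling the combination was at -1.73, above HPA-12 (-2.97) and crenolanib (-1.94). With upper-quartile scaling it was at -1.63, above HPA-12 (-2.88) and crenolanib (-1.80).

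PYCR1 (ENSG00000183010), the mitochondrial reductase of the last step, had 30.4, 28.5 and 28.4 FPKM in DMSO. It had 2.06, 1.52 and 2.66 FPKM under HPA-12, 8.44, 5.94 and 6.96 under crenolanib, and 9.29, 13.5 and 19.4 in the combination. As deposited, the groups again did not overlap. Here the combination lay above both single agents, also with median-ratio and upper-quartile scaling. The differences from DMSO were -3.30 ± 0.22, -1.90 ± 0.22 and -1.05 ± 0.22, number 8, 14 and 3590 from the lowest of all genes. Against crenolanib alone the combination was at 0.85 ± 0.22, where 8.08% of all genes had every combination library above every crenolanib library. Within a library PYCR1 stood to ALDH18A1 as 0.624 ± 0.0267 in DMSO, 0.413 ± 0.123 under HPA-12, 0.643 ± 0.168 under crenolanib and 1.74 ± 0.740 in the combination. The lowest combination ratio (1.16) was above the highest of any other group (0.780), a difference between the 2 proline genes that scaling of the libraries cannot change.

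Promoters are shown because most of the 10 genes were lower together and because MYC and ATF4, both known to act on these pathways, have known binding letters. RefSeq windows (GRCh38.p14) were matched for 7 of the 10 genes, and PSPH, SHMT2 and PYCR1 are given by name only. In the 250 bases before each start, both strands were searched for CACGTG, the E-box bound by MYC and related factors, and for TGATGNAA, the core of the element bound by ATF4. CACGTG was found for 3 of the 7 genes (MTHFD1, MTHFD1L and ALDH18A1) and in 6.34% of all 35116 windows. TGATGNAA was found for 1 (MTHFD1L, in 2 of its alternative windows, with a CACGTG beside it in both) and in 3.14% of all windows. The 7 genes have 10 windows, so these counts of genes and shares of windows are unlike measures. The motifs share no bases here, and a match is a description of letters, not of binding. Capitals mark the match, each sequence reads 5′ to 3′ on the gene's strand, and only a short stretch around the match is given for MTHFD1 and MTHFD1L.
ALDH18A1, chr10:95656712-95656961, minus strand, CACGTG beginning 136 bases before the start: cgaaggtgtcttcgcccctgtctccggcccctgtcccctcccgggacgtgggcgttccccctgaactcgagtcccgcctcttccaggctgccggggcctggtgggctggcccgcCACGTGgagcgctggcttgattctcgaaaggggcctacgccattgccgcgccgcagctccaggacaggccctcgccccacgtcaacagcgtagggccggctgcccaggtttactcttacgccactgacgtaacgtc
MTHFD1, chr14:64388323-64388352, plus strand, CACGTG beginning 15 bases before the start: tggccagtccctaagCACGTGggttgggtt
MTHFD1L, chr6:150866346-150866375, plus strand, TGATGCAA beginning 129 bases before the start: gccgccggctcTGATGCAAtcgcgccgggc
The 3 genes with CACGTG differed from DMSO by -2.97, -1.58 and -1.63 under HPA-12 in the order printed, and of the 4 searched genes without it PHGDH, PSAT1, SHMT1 and MTHFD2 were at -1.04, -1.87, 0.57 and -0.00. Under crenolanib the 3 were at -1.96, -1.11 and -0.91, and the 4 at -0.67, -0.82, -0.49 and -0.24. In the combination the 3 were at -2.38, -0.82 and -1.33, and the 4 at -1.04, -0.90, -0.80 and -0.60. Whether the motif bears on these values was not tested.

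The single agents were also set side by side. Under crenolanib, 6 of the 10 genes (PHGDH, PSAT1, MTHFD1, MTHFD1L, ALDH18A1 and PYCR1) lay wholly above HPA-12, as 31.2% of all genes did. SHMT1, SHMT2 and MTHFD2 lay wholly below, as 37.7% of all genes did, and PSPH overlapped. The largest positive difference between crenolanib and HPA-12 was that of PYCR1 (1.40 ± 0.22) and the largest negative one that of SHMT1 (-1.07 ± 0.27). The genes lower under HPA-12 thus include both proline genes, and those lower under crenolanib include both hydroxymethyltransferases.

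The combination was compared with each agent alone. The effect of HPA-12 differed with and without crenolanib (limma interaction) for 65.6% of all genes. As deposited, SHMT2, MTHFD2 and ALDH18A1 lay wholly lower in the combination than under crenolanib (-0.36 ± 0.08, -0.37 ± 0.11 and -0.42 ± 0.11), as 56.8% of all genes did. PYCR1 lay wholly higher, and the other 6 overlapped. The median of all genes was at -0.63 against crenolanib, lower than SHMT2, MTHFD2 and ALDH18A1. With median-ratio scaling, the difference from DMSO of each of these genes was higher in the combination than under crenolanib. Against HPA-12 alone, PSAT1, MTHFD1, ALDH18A1 and PYCR1 lay wholly higher (0.97 ± 0.13, 0.76 ± 0.15, 0.59 ± 0.11 and 2.25 ± 0.22), as 14.0% of all genes did. PSPH, SHMT1, SHMT2 and MTHFD2 lay wholly lower (-0.98 ± 0.31, -1.37 ± 0.27, -0.84 ± 0.08 and -0.60 ± 0.11), as 56.7% of all genes did. The median of all genes was at -0.64 against HPA-12, close to MTHFD2. With median-ratio scaling, the difference of MTHFD2 from DMSO was 0.02 in the combination and -0.03 under HPA-12. SHMT2 was then at -0.88 and -0.73, PSPH at -1.69 and -1.26, and SHMT1 at -0.27 and 0.54. With upper-quartile scaling MTHFD2 was at 0.12 and 0.05, and SHMT2 at -0.77 and -0.65. Over the 10 genes, the SD was 8.84 to 73.7% of the mean in the combination, 4.59 to 27.2% under HPA-12, 2.80 to 21.4% under crenolanib and 1.30 to 7.16% in DMSO. It was highest in the combination for 9 of the 10, and for ALDH18A1 under crenolanib (13.7%, against 9.33% in the combination). In 7 of the 10 genes the third combination library was the highest of its group. The matching shares of all genes were not counted. Over all genes tested, libraries of a group were also least alike in the combination. Pearson r between them was 0.907 to 0.909, against 0.984 to 0.997 in the other groups.

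The values in the combination depended on how libraries were scaled. With median-ratio and upper-quartile scaling, the median of all genes moved from -0.62 to -0.12 and -0.04, and the share of all calls that were higher than DMSO went from 20.8% to 44.6% and 49.2%. The number of the 10 genes called lower went from 10 to 5 under each, given as a description. PSAT1 was at -0.23 ± 0.14 and -0.13 ± 0.13 in place of -0.90, PHGDH at -0.51 ± 0.15 and -0.42 ± 0.15, and PSPH at -1.69 ± 0.34 and -1.59 ± 0.34. Among the folate genes, SHMT2 was at -0.88 ± 0.09 and -0.77 ± 0.08, MTHFD1L at -0.70 ± 0.18 and -0.60 ± 0.18, and SHMT1 and MTHFD1 lay between -0.27 and -0.18. MTHFD2 changed sign, to 0.02 and 0.12. ALDH18A1 was at -1.73 ± 0.10 and -1.63 ± 0.11, and PYCR1 at -0.40 ± 0.23 and -0.29 ± 0.23. Under each scaling tried, 9 of the 10 genes lay below the median gene.

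**Figure D4:**
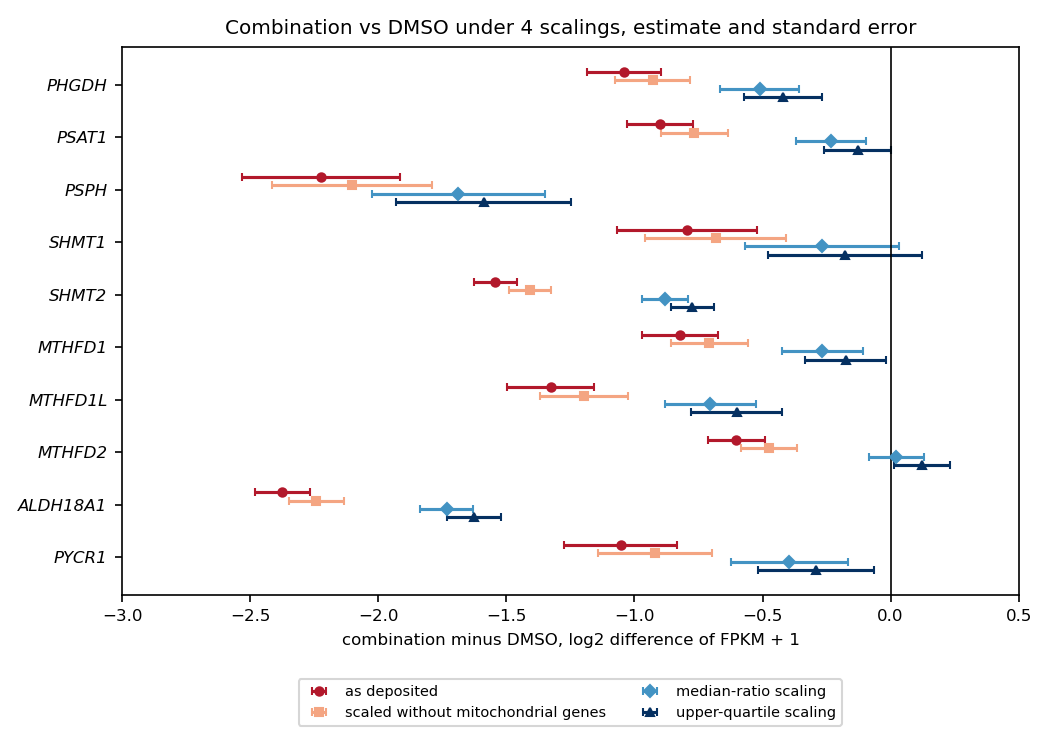
Log2 difference of FPKM plus 1 between the combination and DMSO (horizontal axis) with its standard error for the 10 genes, as deposited and under 3 other scalings of the libraries. ALDH18A1 and PSPH stay at or below -1.59 under all 4, and MTHFD2 moves from -0.60 to 0.12.

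Other genes of the same pathways were taken from a list of 44, of which 35 passed the filter on low values, and were tested in the same fit. This list too was chosen with earlier results of these data known. Most genes named from it were picked among those called by the size of their difference. Their p-values measure only the spread between these libraries. Under HPA-12, 17 of the 35 fell and 2 rose (limma, Benjamini-Hochberg adjustment over all genes), where 23.0% and 27.8% of all genes did, and the median of the 35 was -0.35. Under crenolanib, 15 fell and 2 rose (29.0% and 27.5% of all genes; median -0.23). In the combination, 20 fell and 4 rose as deposited (56.6% and 14.8% of all genes; median -0.68), but 12 fell and 9 rose with median-ratio scaling and 11 and 9 with upper-quartile scaling. The counts include calls of CBS, CTH and MTHFS, which passed the filter only with the libraries of the group where each was high. These calls are descriptions.

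Among 9 tested serine and glycine genes, 4 fell and 1 rose under HPA-12, 4 fell under crenolanib, and 6 fell and 1 rose in the combination. Of all genes, 23.0%, 29.0% and 56.6% fell and 27.8%, 27.5% and 14.8% rose, in the same order. The falls under HPA-12 and in the combination include CBS (1.04 to 1.24 FPKM in DMSO). CBS passed the filter on low values only with its DMSO libraries counted, so its calls are descriptions. GCAT, an enzyme of the route from threonine to glycine, went from 16.3 ± 1.05 FPKM in DMSO to 1.55 ± 0.348 under HPA-12 (-2.77 ± 0.24, limma adjusted p = 2.07e-06) and 5.15 ± 0.788 under crenolanib (-1.50 ± 0.24, limma adjusted p = 0.000235). It was at 7.53 ± 3.44 FPKM in the combination (-1.09 ± 0.24, limma adjusted p = 0.00132, and 0.125 with median-ratio scaling). SFXN3, a sideroflexin related to the mitochondrial serine carrier SFXN1, had 44.0 ± 2.03 FPKM in DMSO and 34.2 ± 2.55 under HPA-12 (-0.35 ± 0.18, limma adjusted p = 0.132, and 0.000423 in a fit without the combination libraries). It fell to 20.02 ± 1.35 FPKM under crenolanib (-1.10 ± 0.18) and 6.44 ± 2.39 in the combination (-2.65 ± 0.18, limma adjusted p = 1.09e-07). DLD, a subunit shared by the glycine cleavage system and other complexes, fell by 0.50 ± 0.14 under HPA-12 (limma adjusted p = 0.00961). Under crenolanib it was at 0.25 ± 0.14 (limma adjusted p = 0.137, and 0.0169 without the combination libraries). SDSL, a serine dehydratase relative, fell by 0.59 ± 0.21 under crenolanib (limma adjusted p = 0.0344), a call that ended with each other scaling (adjusted p of 0.0515 with median-ratio scaling) and when any of 5 single libraries was left out. The gene that rose under HPA-12 was the serine dehydratase SDS, from 0.937 ± 0.141 to 2.87 ± 0.121 FPKM, and the one that rose in the combination was CTH, which makes cysteine, from 0.804 ± 0.221 to 3.30 ± 1.29 FPKM, both named after their values were seen. CTH passed the filter on low values only with its combination libraries counted, so its rise is a description. Under crenolanib 0 of the 9 rose, also at an unadjusted p under 0.05 in limma.

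Among 18 tested folate and methyl-cycle genes, 9 fell and 1 rose under HPA-12, 6 fell and 1 rose under crenolanib, and 10 fell and 2 rose in the combination. The shares of all genes that fell were 23.0%, 29.0% and 56.6%, and of those that rose 27.8%, 27.5% and 14.8%. The counts under crenolanib and in the combination thus lie near the share of all genes that fell. SLC19A1, the reduced folate carrier, had 12.5 ± 0.177 FPKM in DMSO, 1.80 ± 0.242 under HPA-12 (-2.28 ± 0.19, limma adjusted p = 1.41e-06), 3.57 ± 0.352 under crenolanib (-1.57 ± 0.19) and 2.29 ± 0.903 in the combination (-2.08 ± 0.19). ATIC and GART, the purine enzymes that consume formyl-folate, fell too. ATIC had 45.4 ± 1.58 FPKM in DMSO and 9.04 ± 0.338 under HPA-12 (-2.21 ± 0.14), 14.9 ± 0.688 under crenolanib and 16.7 ± 4.50 in the combination. GART had 29.4 ± 1.06 FPKM in DMSO and 11.1 ± 0.147, 13.0 ± 0.734 and 7.07 ± 1.02 in the same order. MAT2A, which makes S-adenosylmethionine, fell from 120 ± 5.01 FPKM to 50.9 ± 0.789, 65.8 ± 1.71 and 44.1 ± 1.33, and AHCY, which clears its by-product, from 57.4 ± 0.488 to 20.4 ± 2.36, 21.4 ± 0.658 and 22.4 ± 4.35.

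Of the folate genes that rose, 2 are named after their values were seen. MTHFS, which returns a stored folate form to the cycle, was at 0.151 ± 0.0486 FPKM in DMSO and 2.24 ± 0.695 under crenolanib (1.47 ± 0.37). It passed the filter on low values only with its crenolanib libraries counted. Its call in the count above is therefore a description, and no p-value is given. GGH, which trims the glutamate tail of folates, rose in the combination from 1.11 ± 0.0875 to 1.82 ± 0.487 FPKM (0.41 ± 0.15, limma adjusted p = 0.0252).

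Among 8 tested proline, ornithine and glutamate genes, 4 fell and 0 rose under HPA-12 (6 and 0 at an unadjusted p under 0.05 in limma), 5 fell and 1 rose under crenolanib, and 4 fell and 1 rose in the combination. Over all genes, 23.0%, 29.0% and 56.6% fell and 27.8%, 27.5% and 14.8% rose. PYCR3, the cytosolic isozyme of PYCR1, had 10.7 ± 0.698 FPKM in DMSO, 1.09 ± 0.0583 under HPA-12 (-2.48 ± 0.19, limma adjusted p = 9.46e-07), 3.29 ± 0.874 under crenolanib (-1.46 ± 0.19) and 2.29 ± 0.855 in the combination (-1.85 ± 0.19). Within a library PYCR1 stood to PYCR3 as 2.74 ± 0.196 in DMSO, 1.93 ± 0.606 under HPA-12, 2.20 ± 0.233 under crenolanib and 6.96 ± 3.54 in the combination. Every combination library had a higher ratio than every other library, the lowest at 2.88 against 2.86 for the highest DMSO library.

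OAT, which links ornithine to the same intermediate as proline, moved both ways. It fell from 8.44 ± 1.12 to 4.29 ± 0.662 FPKM under HPA-12 (-0.84 ± 0.21, limma adjusted p = 0.00564) and was at 12.3 ± 1.44 under crenolanib (0.50 ± 0.21, limma adjusted p = 0.0591, and 0.00154 without the combination libraries). It rose to 31.0 ± 10.8 FPKM in the combination (1.71 ± 0.21, limma adjusted p = 1.4e-05). ALDH4A1, an enzyme of proline breakdown, fell in all 3 comparisons (-1.23 ± 0.20, -1.31 ± 0.20 and -1.39 ± 0.20). GLUD1 fell under crenolanib (-0.39 ± 0.10, limma adjusted p = 0.0625 with upper-quartile scaling) and the combination (-1.05 ± 0.10). GLUL, the glutamine synthetase, fell by 0.18 ± 0.06 under HPA-12 and 0.23 ± 0.06 under crenolanib, calls that ended with upper-quartile scaling (limma adjusted p of 0.0809 and 0.338). PRODH and PRODH2, which open proline breakdown, did not pass the filter.

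**Figure D5:**
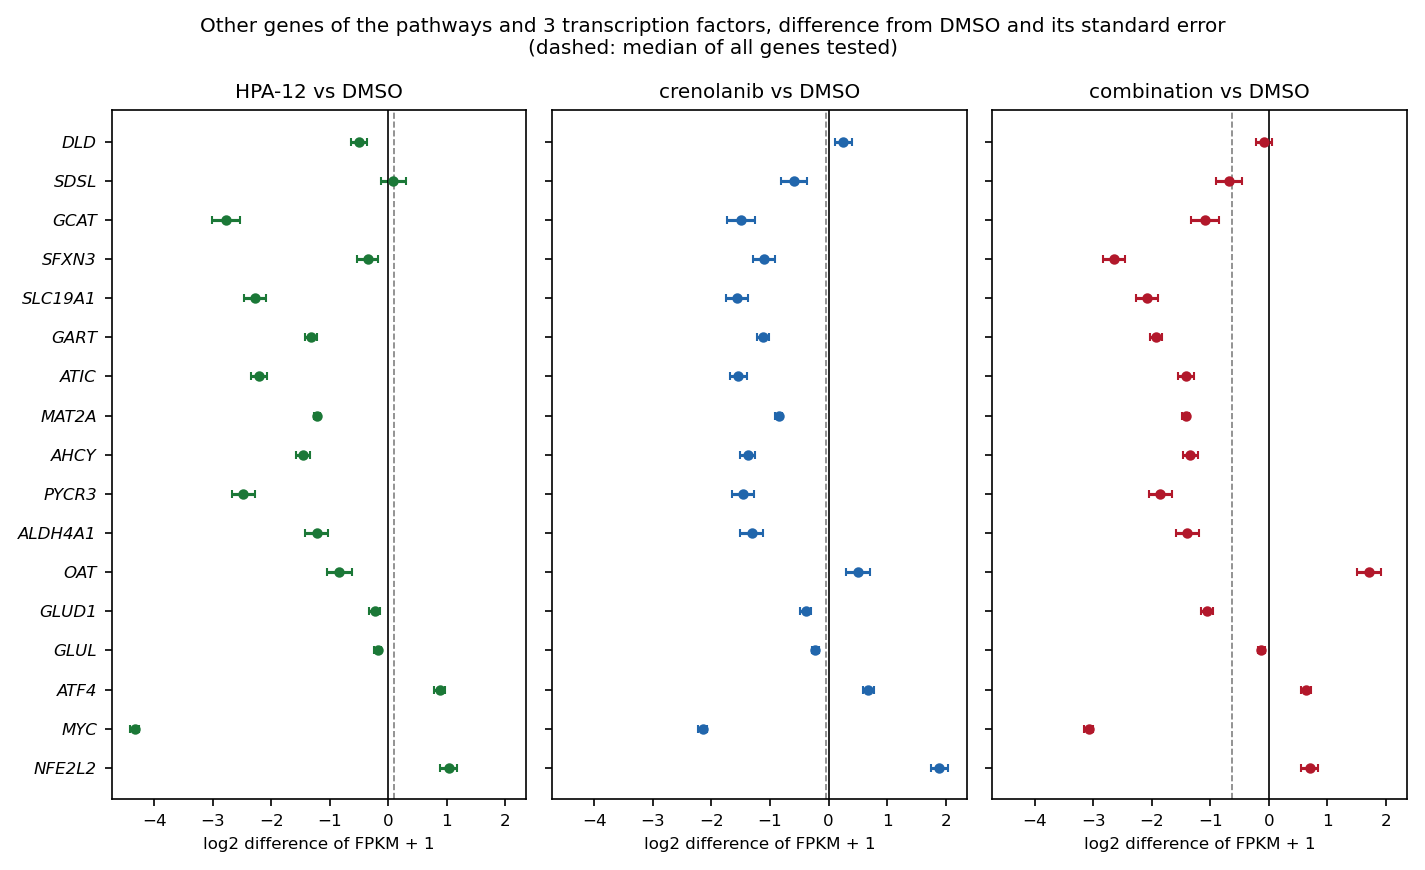
Log2 difference of FPKM plus 1 from DMSO (horizontal axis) with its standard error for 14 other pathway genes and for ATF4, MYC and NFE2L2, in 3 panels by treatment, with the median of all genes dashed. GCAT, SLC19A1, ATIC and PYCR3 lie below -2 under HPA-12, and OAT is the pathway gene above 1 in the combination.

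The transcription factors linked to these pathways moved apart. MYC had 160, 158 and 155 FPKM in DMSO, 6.62, 7.0 and 7.03 under HPA-12, 38.5, 33.7 and 32.3 under crenolanib, and 17.5, 17.7 and 18.1 in the combination, and fell in each comparison (-4.33 ± 0.07, -2.15 ± 0.07 and -3.08 ± 0.07, all limma adjusted p at or below 7.48e-10). ATF4 rose in each, from 87.4 ± 1.61 FPKM to 161 ± 1.40, 141 ± 5.83 and 138 ± 21.4 (0.87 ± 0.09, 0.68 ± 0.09 and 0.64 ± 0.09). NFE2L2, which encodes the antioxidant factor NRF2, rose from 3.50 ± 0.309 to 8.29 ± 1.44, 15.7 ± 1.09 and 6.37 ± 1.10 FPKM. By group means, MYC was highest in DMSO, then crenolanib, then the combination, and lowest under HPA-12. As deposited, the means of 4 of the 10 genes had that order (PHGDH, PSAT1, MTHFD1L and ALDH18A1), and those of the other 6 did not. PYCR1 and MTHFD1 had the combination above crenolanib, PSPH, SHMT2 and MTHFD2 had HPA-12 above both other treatments, and SHMT1 had HPA-12 above DMSO. Several of these places rest on groups whose libraries overlapped. PHGDH (means of 2.40 and 2.37 FPKM) and MTHFD1L overlapped between the combination and HPA-12, and PSPH between HPA-12 and crenolanib (5.90 and 5.72 FPKM). PHGDH, PSAT1, PSPH, SHMT1, MTHFD1 and MTHFD1L overlapped between the combination and crenolanib. Of the 4 with the order of MYC, only ALDH18A1 had no overlap between groups. The share of all genes with the order of MYC was not counted. With median-ratio scaling, the difference from DMSO was higher in the combination than under crenolanib for each of the 4. The values were -0.51 against -0.65 for PHGDH and -0.23 against -0.81 for PSAT1. They were -0.70 against -0.89 for MTHFD1L and -1.73 against -1.94 for ALDH18A1. Nothing about MYC as a cause was tested.

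For 1 gene of each branch, the 3 genes with the most similar levels over the 12 libraries were found among genes averaging 5 FPKM or more. The 12 libraries fall into 4 groups that share their depth and mitochondrial share, so these correlations describe mainly 4 group levels. For PHGDH they were SLC45A3 (Pearson r = 0.979), RUVBL1 (0.979) and NSMF (0.979). For SHMT2 they were TCF3 (0.997), SYNGR2 (0.990) and DNMT1 (0.990). For PYCR1 they were APRT (0.983), NUTF2 (0.977) and CENPX (0.975), and APRT had 75.3 FPKM in DMSO, 15.4 under HPA-12, 30.5 under crenolanib and 49.1 in the combination, the order seen for PYCR1.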

How the data were processed

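The deposited table gives FPKM for 12 libraries, computed by the authors, per the file headers. Which aligner, counting method, genome build and annotation they used is not given in the sources used for this text. Symbols were matched for 20011 of 20036 Ensembl identifiers. Depth was estimated with GENCODE v29 gene lengths as the read number at which the most low values (under 20 reads) became whole within 0.01 read. On average 38.8% of them did in DMSO and 31.1% in the combination, so these depths are estimates.

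A gene was tested if 3 or more libraries reached 1 FPKM (11149 genes). FPKM values, with a pseudocount of 1 added, were log2-transformed and analysed by limma 3.58.1 under R 4.3.3 (statmod 1.5.0 for a robust alternative), as 4 groups with a mean-variance trend. P-values are two-sided with Benjamini-Hochberg adjustment over all genes tested and a threshold of 0.05. All groups share 1 estimate of each gene's spread, although the combination libraries vary more for most of the 10 genes. The members and lists were chosen with earlier results of these data known. Other pathway genes named are, per list and comparison with DMSO, up to 3 called genes with the largest difference and a mean of at least 5 FPKM, plus PYCR3, ATF4, MYC and NFE2L2. Some genes that this rule or a small count would name are not reported here, while counts over lists include them. Replicate numbers did not pair libraries: in 0 of 18 pairs of same-numbered libraries did deviations from the group means correlate above 0.1.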

Additional observations from a re-analysis of the deposited data

Results flagged for a closer look

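The effect of HPA-12 was compared without crenolanib (HPA-12 minus DMSO) and with it (combination minus crenolanib), and the difference between these is the interaction on the log2 scale. Over all 11149 genes its median was -0.65, and 65.6% of genes passed (limma, adjusted p under 0.05), so passing is common in these libraries. Among the 10 genes the difference was not tested. It is given for 2 genes in which every HPA-12 library lay below the DMSO mean and every combination library above the crenolanib mean: PYCR1 (4.15, from -3.30 without to 0.85 with crenolanib) and MTHFD1 (1.86, from -1.58 to 0.28).

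Of the other named genes, 15 passed the interaction test. MYC had 3.40, GCAT 3.17, ATIC 2.33, PYCR3 2.08, OAT 2.05, SLC19A1 1.76, AHCY 1.49, ALDH4A1 1.15, MAT2A 0.65, GART 0.53 and GLUL 0.28. Negative values were found for NFE2L2 (-2.22), SFXN3 (-1.20), ATF4 (-0.92) and GLUD1 (-0.42). GLUD1 lay above the median of all genes (-0.65). The interaction was fitted only to values as deposited, so how far these values depend on scaling was not tested. Adjusted p in limma ran from 8.24e-10 for MYC to 0.0187 for GLUD1. OAT was lower with HPA-12 alone (-0.84) and higher in the combination than with crenolanib alone (1.21).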

How the results depend on the processing

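The numbers called among the 10 genes and among the 35 other pathway genes stayed within 1.5 times the reported ones for HPA-12 and crenolanib vs DMSO. Over all genes, HPA-12 vs DMSO had 5673 calls as reported and 8654 in a fit of these 2 groups alone. With a mean of at least 5 FPKM, which leaves fewer genes to test, calls went from 5673 to 3705 for HPA-12, 6298 to 4108 for crenolanib and 7963 to 5199 for the combination. For the combination, the number of the 10 genes called went from 10 to 5 with median-ratio scaling and to 5 with upper-quartile scaling (the cause was not tested). Over all genes, lower calls went from 6309 to 3787 and 3419, and higher calls from 1654 to 3048 and 3309. Leaving out single libraries gave 8 to 9 of the 10 genes for HPA-12, 8 to 10 for crenolanib and 9 to 10 for the combination, and 17 to 22, 16 to 21 and 20 to 27 of the 35 other pathway genes. These are calls in either direction. The 2 of the 10 not called under HPA-12 as reported were SHMT1 (0.57) and MTHFD2 (-0.00). A count of 9 there includes at least 1 of these and need not hold lower calls only. With the replicate number as a block, 8, 8 and 10 of the 10 genes and 18, 17 and 23 of the 35 were called. Over all genes, the block gave 2530, 3181 and 6300 lower calls and 3030, 2998 and 1624 higher ones. It moved no count by over 1.5 times, and the numbers do not pair the libraries (r of -0.03 to 0.07). Combination vs DMSO changed sign with median-ratio and upper-quartile scaling for MTHFD2 (0.022 and 0.12), DLD (0.56 and 0.66) and GLUL (0.55 and 0.66), of which DLD and GLUL then passed as higher (limma adjusted p of 0.00324 and 0.00144 for DLD, 5.48e-06 and 1.16e-06 for GLUL), and with upper-quartile scaling for SDSL (0.0035). With totals taken without mitochondrial genes DLD (0.040) and GLUL (0.0075) changed sign. Leaving out single libraries, DLD ran from -0.24 to 0.037 in the combination, and SDSL from -0.00036 to 0.17 with HPA-12. The estimated depth of the combination limits genes such as PSPH most.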
